A study of Mus musculus with 28 samples.

Results

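Erbb4, the receptor tyrosine kinase ErbB4, and the neuregulin ligand genes Nrg1, Nrg2 and Nrg3 were followed through the nuclear RNA of sorted cell nuclei from the motor cortex of mice. The 4 genes were found by their symbols among 41549 named genes of the count tables, and all 4 were present. Neuregulins are membrane-anchored growth factors with an EGF-like domain, and many isoforms are cut by proteases to release a signal to neighbouring cells. ErbB4 binds them, dimerises and signals through the PI3 kinase, MAP kinase and STAT5 pathways, and its own intracellular part can be freed by gamma-secretase. In the cortex Erbb4 is known mainly from GABAergic interneurons, above all parvalbumin cells, where it acts in synapse formation and inhibition.

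The series tested a Cas9 vector system for lowering microRNAs in the brain. The 7 animals, numbered 17 to 23, received the adeno-associated virus AAV-Cas9-miR-124-empty (called empty here) in the left motor cortex and AAV-Cas9-miR-124-g4 (called g4) in the right. Nuclei of the tissue, fixed with 1% paraformaldehyde, were stained for the HA tag on Cas9 and sorted into HA-positive (Cas9-positive) and HA-negative nuclei. This gave 4 groups of 7 libraries, HA-positive and HA-negative nuclei from the empty and from the g4 side. Every group therefore came from an injected hemisphere, and the HA-negative nuclei are the unlabelled nuclei of the same injected tissue. No uninjected tissue is among the groups. The vector and the side of the brain coincided in all animals and cannot be told apart. The promoter that drives Cas9, what g4 stands for, and the strain, age and sex of the animals are not stated in the labels.

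The 28 libraries held 248612 to 902944 counts and 8687 to 13668 detected genes each, and 4 HA-positive libraries were under 10000 genes (empty of animals 17, 21 and 22, g4 of animal 18). The g4 HA-positive library of animal 19 stood apart. It held 591 counts of Xist, the transcript of the inactive X chromosome, beside 44 of Y-linked genes, and its 12 oligodendrocyte markers summed to 1532 CPM (counts scaled to a library size of 1e6) against at most 225 in the other g4 HA-positive libraries. The markers of several cell types were measured in all groups. HA-positive nuclei held more RNA of general GABA neuron genes (Gad1, Gad2 and Slc32a1, all 3 called higher with either vector) and of interneuron classes (8 of 14 tested markers called higher with empty, 8 of 15 with g4), where 3.5% and 3.32% of all genes tested were called higher. Markers of oligodendrocytes (8 of 8 and 7 of 9 called lower), microglia (5 of 5 and 4 of 6) and striatal projection neurons (5 of 6 and 5 of 7) were lower there (over all genes tested, 3.5% and 3.08% were called lower). These lists hold 12, 11 and 10 markers, and those not tested had too few counts. Several tested ones had enough counts only through HA-negative libraries, such as Cx3cr1 with 0 HA-positive and 185 HA-negative counts (empty). Of 19 interneuron class markers listed, 18 were in the count tables, and those not tested also had too few counts. In the other direction, Pvalb had 294 HA-positive and 60 HA-negative counts (empty). It did not pass the filter of the fit of HA-negative libraries alone. The shares therefore do not stand for the whole lists. Of excitatory neuron markers 3 of 12 and 2 of 13 were called lower, of astrocyte markers 1 of 5 and 0 of 6, and of oligodendrocyte precursor markers 1 of 1 and 2 of 2, while no endothelial or mural marker had enough counts for a test. The 10 striatal markers summed to 282 to 2277 CPM in HA-negative libraries of tissue labelled motor cortex. In RNA of many nuclei, fewer nuclei of a type and less RNA per nucleus cannot be told apart.

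Erbb4 was about 3 times as abundant in HA-positive as in HA-negative nuclei, with both vectors and in all 7 animals. Its level with g4 did not pass the test against empty in either kind of nucleus. The gene (ENSMUSG00000062209) spans 1075874 bases of chromosome 1, chr1:68032186-69108059 on the minus strand (GRCm38), with 12355 bases of annotated exons. Most of the locus is therefore intron, and the tables do not separate intronic from exonic counts. A single overlapping gene, Gm16076, a sense transcript inside an Erbb4 intron, had counts in these tables, 32 in all against 4730 for Erbb4.

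In the 7 empty HA-positive libraries Erbb4 ranged from 302 CPM (animal 22) over a median of 430 to 814 (animal 17), a mean of 481 ± 169 (SD, n = 7). With the same vector the HA-negative libraries ranged from 113 over a median of 154 to 197 CPM, a mean of 152 ± 28.8 (SD, n = 7). The groups did not overlap, and the lowest HA-positive library was above the highest HA-negative one. Erbb4 was 3.15-fold higher in HA-positive nuclei (interval of 2 standard errors 2.46 to 4.05), a log2 fold change of 1.66 ± 0.18 (SE, edgeR adjusted p = 1.69e-07). By p-value it was the 12th of the 5538 genes tested, of which 7.01% were called in either direction and 3.5% as higher. Of the 4 genes, only Erbb4 and Nrg3 had enough counts for this fit, and Erbb4 was called.

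On the g4 side Erbb4 ranged from 320 CPM (animal 19) over a median of 595 to 725 (animal 17) in HA-positive libraries, a mean of 554 ± 141 (SD, n = 7). The HA-negative libraries ranged from 132 over a median of 175 to 195 CPM, a mean of 166 ± 22.7 (SD, n = 7). Again no HA-negative library reached the lowest HA-positive one, which was the library of animal 19 with the glial transcripts. The difference was 3.32-fold (2.70 to 4.08), a log2 fold change of 1.73 ± 0.15 (SE, edgeR adjusted p = 9.99e-10). Of the 6264 genes tested, 6.4% were called in either direction and 3.32% as higher, and Erbb4 had the smallest p-value of them all. With that library left out the log2 fold change was 1.83 ± 0.13 (SE, edgeR adjusted p = 3.95e-12).

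**Figure D1:**
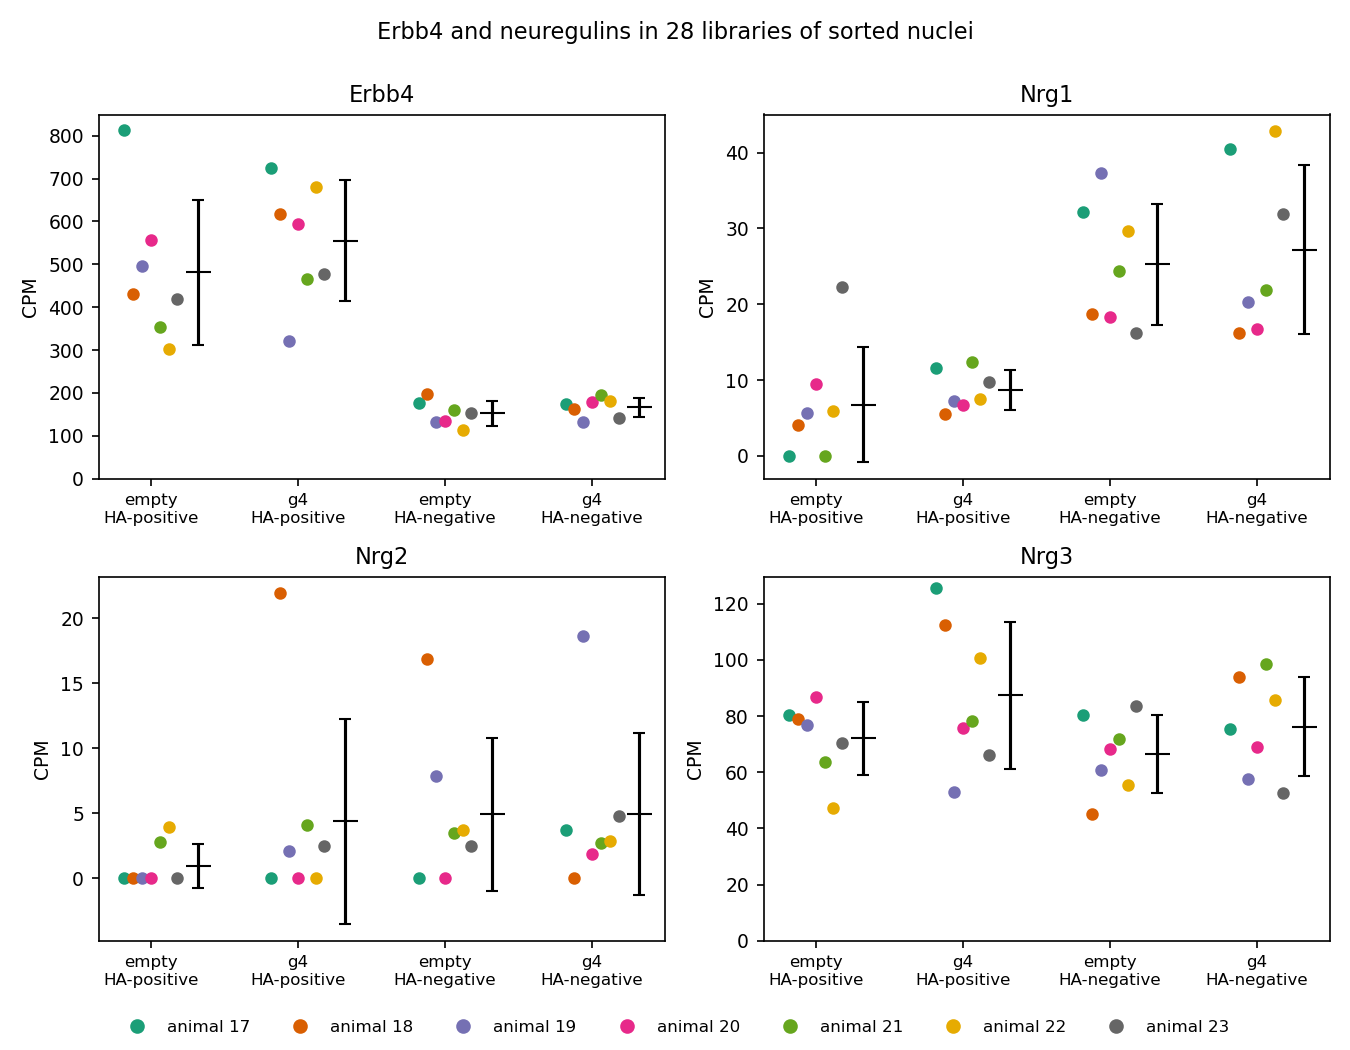
Level in CPM (vertical axes, linear, each gene on its own scale) of Erbb4, Nrg1, Nrg2 and Nrg3 in the 4 groups. Each point is 1 library coloured by animal, and the bar beside each group is the mean ± SD (n = 7). Erbb4 lies between 302 and 814 CPM in HA-positive libraries and between 113 and 197 CPM in HA-negative ones, Nrg1 is mostly higher in HA-negative libraries, Nrg3 overlaps in all 4 groups, and Nrg2 is near 0 in most libraries.

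Between the vectors the Erbb4 ranges overlapped in both kinds of nuclei. In HA-positive nuclei the log2 fold change of g4 against empty was 0.20 ± 0.19 (SE, edgeR adjusted p = 0.895), with 5 of 7 animals higher on the g4 side. The interval of 2 standard errors ran from 0.887-fold to 1.49-fold. In HA-negative nuclei it was 0.12 ± 0.14 (adjusted p = 0.999), higher on the g4 side in 4 of 7 animals. Among all genes tested, 0.0599% were called between the vectors in HA-positive nuclei and 0% in HA-negative nuclei, so that calls were rare for any gene. The vector difference in HA-positive nuclei minus that in HA-negative nuclei was 0.09 ± 0.24 for Erbb4 (SE, log2, adjusted p = 0.998), where again 0% of genes were called. From high to low, the group means ran from the g4 and then the empty HA-positive libraries to the g4 and then the empty HA-negative ones, and the neighbours that share a kind of nucleus did not differ beyond their spread.

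Since HA-positive libraries also held more RNA of GABA neurons, Erbb4 was set against it inside each library. The ratio of Erbb4 counts to the summed counts of Gad1 and Gad2, which make GABA, and Slc32a1, which loads it into vesicles, needs no library size. The 3 markers were above 0 in every group, and they summed to 1204 to 2170 CPM (empty) and 709 to 1550 (g4) in HA-positive libraries against 411 to 635 and 276 to 586 in HA-negative ones. With empty the ratio was 0.251 to 0.458 in HA-positive libraries and 0.220 to 0.357 in HA-negative ones (geometric means 0.326 and 0.294). The ranges overlapped. The mean difference within animals was 0.15 on the log2 scale (SD 0.27, n = 7 pairs, higher in 5 of 7 animals, two-sided exact paired permutation p = 0.234).

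With g4 the ratio was 0.445 to 0.674 in HA-positive libraries and 0.299 to 0.588 in HA-negative ones (geometric means 0.512 and 0.369). The ranges overlapped through the g4 HA-negative library of animal 18, at 0.588, while the other 6 HA-negative libraries stayed at or below 0.380. That library had 162 CPM of Erbb4, within the range of its group, and the group's lowest sum of the 3 markers, 276 CPM. Its striatal markers also had the lowest sum of the group, 282 CPM against a median of 1420. Their part in its ratio was not tested. The mean difference within animals was 0.47 (log2, SD 0.42, higher in 6 of 7 animals, exact paired permutation p = 0.03125), and the p adjusted over the 2 vectors was 0.0625. With Gad1 alone as the reference it shrank to 0.04 with g4 (exact p = 0.859) and became -0.22 with empty (exact p = 0.0781). Against the summed interneuron class markers it was 0.45 with g4 (exact p = 0.0469) and 0.22 with empty (exact p = 0.188). Per GABA marker RNA, then, Erbb4 differed between the kinds of nuclei by 0.15 and 0.47 on the log2 scale, against 1.66 and 1.73 for its CPM, and the size depended on the reference gene. The summed GABA markers are general to GABA neurons, so this ratio is not Erbb4 per interneuron RNA. The summed striatal markers had means of 251 (empty) and 275 CPM (g4) in HA-positive libraries, against 1363 and 1123 CPM in HA-negative ones. The part of striatal RNA in the ratio was not tested.

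A comparison of this ratio between the vectors was added after the data had been seen, so it is given as values only. In HA-positive libraries the g4 ratio was above the empty one in 6 of 7 animals, with a mean difference of 0.65 (log2, SD 0.47). In HA-negative libraries it was above in 6 of 7 animals, by 0.33 (SD 0.34). Here too the size depended on the reference. Against Gad1 alone the geometric means were 0.656 (empty) and 0.882 (g4) in HA-positive libraries, and 0.762 and 0.857 in HA-negative ones. Against the summed interneuron class markers they were 0.200 and 0.272, and 0.172 and 0.199. The fitted differences of the 3 reference genes are given beside the ratio. In HA-positive nuclei the log2 fold change of g4 against empty was -0.66 ± 0.16 for Gad2 (SE, edgeR adjusted p = 0.162), -0.66 ± 0.23 for Slc32a1 (adjusted p = 0.619) and -0.20 ± 0.19 for Gad1 (adjusted p = 0.902), and none of the 3 was called. Their part in the difference of the ratio was not tested.

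**Figure D2:**
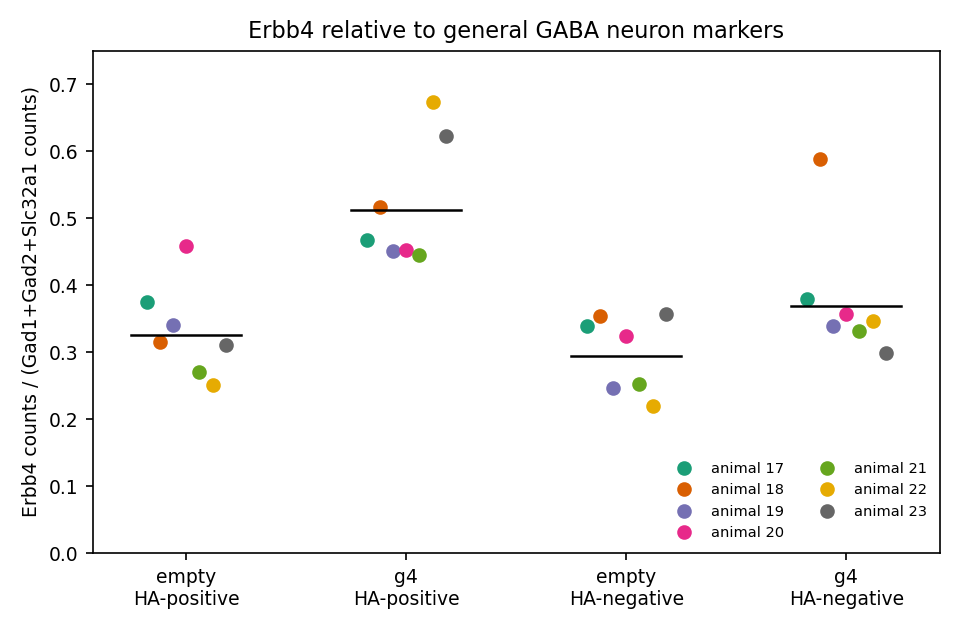
Erbb4 counts divided by the summed counts of Gad1, Gad2 and Slc32a1 (vertical axis, linear, no unit) in each library of the 4 groups. Points are libraries coloured by animal and lines are geometric means, 0.326, 0.512, 0.294 and 0.369 from left to right. The g4 HA-negative library of animal 18, at 0.588, lies apart from the other 6 of its group.

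The genes whose log2 CPM followed Erbb4 most closely were ranked over the 28 libraries among 5840 genes with a mean of at least 20 CPM. Among the 5 highest Pearson r were those of Gad1 (0.94), Nxph1 (0.90) and Lgi2 (0.90). Gad1 encodes the GABA-synthesising enzyme GAD67, Nxph1 a secreted ligand of neurexins and Lgi2 a secreted synaptic protein. Over deviations from the 4 group means, which take out the contrast between the sorted fractions, r was 0.71 for Gad1, 0.74 for Nxph1 and 0.53 for Lgi2, against 0.49 for Gad2 and 0.14 for Slc32a1. Over all libraries Gad2 ranked 94th (r = 0.73), Slc32a1 114th (r = 0.71), and Slc17a7, the vesicular glutamate transporter of cortical excitatory neurons, had r = -0.62. The points share 7 animals, the sort and library depth, so these values are descriptions of the 28 libraries.

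Among the ligands, Nrg3 RNA was detected in every library and did not pass the test between HA-positive and HA-negative nuclei. Nrg1 was scarce, and its lower level in HA-positive nuclei, where Erbb4 was high, was called in a fit over all libraries but not in all alternatives or by the paired exact test after adjustment. Nrg2 had too few counts to pass the filter of any fit given here. Compared per kilobase (kb) of annotated exon, Nrg3 was the most abundant neuregulin in all 4 groups.

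Nrg1 encodes the founding neuregulin, whose isoforms include a type with a cysteine-rich domain that drives myelination in the peripheral nerve. The gene (ENSMUSG00000062991) lies at chr8:31814551-32884029 on the minus strand, with 10351 bases of annotated exons in 18 annotated transcripts, and the counts do not separate its isoforms. In all, 268 counts were found over the 28 libraries. In the fits of 2 groups alone it passed the filter on low counts for g4 against empty in HA-negative nuclei only, so the contrast between fractions was read from the fit over all 28 libraries. Nrg1 passed the filter of that fit mainly through the HA-negative libraries, where it was higher. Its calls between the fractions are therefore not independent of the filter.

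In empty HA-positive libraries Nrg1 ranged from 0 (animals 17 and 21) over a median of 5.70 to 22.2 CPM (animal 23), a mean of 6.77 ± 7.60 (SD, n = 7) from 19 counts. The empty HA-negative libraries ranged from 16.2 over 24.3 to 37.3 CPM, a mean of 25.3 ± 8.01 (SD, n = 7) from 100 counts. Animal 23 alone was higher in its HA-positive library, and it alone made the groups overlap. In the fit over all libraries the log2 fold change was -1.91 ± 0.52 (SE, edgeR adjusted p = 0.0117), where 8.5% of 7197 genes were called in either direction and 4.82% as lower. The exact permutation test of the CPM gave an unadjusted p of 0.00233 over libraries and 0.03125 over the 7 pairs of an animal, or 0.00932 and 0.125 when adjusted over the 8 such tests of Nrg1 and Nrg2.

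With g4 the HA-positive libraries ranged from 5.49 over 7.54 to 12.4 CPM, a mean of 8.68 ± 2.60 (SD, n = 7) from 35 counts. The HA-negative libraries ranged from 16.2 over 21.9 to 42.8 CPM, a mean of 27.2 ± 11.2 (SD, n = 7) from 114 counts. Here the groups did not overlap and all 7 animals were lower in the HA-positive library. The log2 fold change in the fit over all libraries was -1.62 ± 0.49 (SE, edgeR adjusted p = 0.0344), with 5.02% of genes called in either direction and 2.49% as lower. The exact permutation p was 0.000583 over libraries and 0.015625 over pairs, which is the smallest that 7 pairs allow. Adjusted over the 8 tests they were 0.00466 and 0.125. After adjustment the paired test could not pass through the 2 Nrg1 fraction contrasts alone, even with both at that smallest p. It therefore cannot decide the question.

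At these counts the calls were not firm. In the fit over all libraries the adjusted p of the g4 contrast rose to 0.0549 when the HA-positive library of animal 19 was left out and to 0.0663 with the animal as a block. It lay between 0.0669 and 0.151 without animal 17, 19, 20, 22 or 23. The empty contrast had an adjusted p of 0.0873 without the HA-positive libraries under 10000 genes, where the log2 fold change was -1.38, and of 0.0583 and 0.0582 without animal 17 or 19. The sign did not change in any of these fits. Markers of glia moved in the same direction. The 12 oligodendrocyte markers summed to 52.0 to 126 CPM (empty) and 106 to 1532 (g4) in HA-positive libraries against 1243 to 2212 and 1536 to 2808 in HA-negative ones. The 11 microglia markers summed to 6.99 to 44.5 and 2.74 to 359 CPM against 272 to 639 and 415 to 664. The highest g4 HA-positive sums are those of animal 19, and without that library they reached 225 and 46.5 CPM. In empty HA-positive libraries the oligodendrocyte gene Opalin and the microglia genes Cx3cr1, P2ry12, C1qa, C1qc and Gpr34 had no counts, and Cldn14 had none in any group. Their part in the difference of Nrg1 was not tested.

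Between the vectors Nrg1 in HA-negative nuclei had a log2 fold change of 0.14 ± 0.33 (SE, edgeR adjusted p = 0.999), with 3 of 7 animals higher on the g4 side. In HA-positive nuclei the means of 8.68 CPM with g4 and 6.77 CPM with empty had an exact permutation p of 0.580. The difference between those vector effects was 0.29 ± 0.70 (SE, log2, adjusted p = 0.998).

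Because the vectors are named for miR-124, which pairs with its targets through the seed at its 5′ end, the 3′ untranslated regions (UTRs) of the 4 genes were searched for its matches. The motifs were GTGCCTT and TGCCTTA, which share 6 bases, read on the transcript strand in the longest annotated 3′ UTR (Erbb4 7855 bases, Nrg1 3477, Nrg2 262, Nrg3 1581). Nrg1 alone held a match, the motif GTGCCTT once, at chr8:31817803-31817809 on the minus strand of GRCm38, starting 219 bases into its UTR. It is shown with its flanks, 5′ to 3′ on the transcript strand, because it is the only match among these genes, and the capitals mark the bases that match the seed.
Nrg1 miR-124 match: agatatcaatgGTGCCTTtatgttatgtt
Of 21007 genes with an annotated 3′ UTR (median length 961 bases), 19.7% held at least 1 of the motifs. The match is a description of sequence, and no match says only that these letters are not in the window searched.

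Nrg3, a neuregulin found mainly in the nervous system that binds ErbB4, was the ligand with the most counts, 1117 in all. The gene (ENSMUSG00000041014) lies at chr14:38368952-39473088 on the minus strand, with 6817 bases of annotated exons. It ranged from 47.4 over 76.9 to 86.6 CPM in empty HA-positive libraries and from 45.0 over 68.1 to 83.7 CPM in empty HA-negative ones (means 72.0 ± 13.1 and 66.5 ± 13.8, SD, n = 7 each). These ranges nearly coincided, and 3 of 7 animals were higher in the HA-positive library. The log2 fold change was 0.11 ± 0.24 (SE, edgeR adjusted p = 0.859), with an interval of 2 standard errors from 0.776-fold to 1.503-fold.

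With g4 Nrg3 ranged from 53.0 (animal 19) over 78.3 to 126 CPM (animal 17) in HA-positive libraries and from 52.7 over 75.4 to 98.6 CPM in HA-negative ones. The means were 87.4 ± 26.2 and 76.2 ± 17.6 CPM (SD, n = 7 each), and 5 of 7 animals were higher in the HA-positive library. The log2 fold change was 0.19 ± 0.22 (SE, adjusted p = 0.744), with an interval from 0.844-fold to 1.54-fold. Both intervals end below the lower bounds for Erbb4, 2.46-fold and 2.70-fold. The difference between the 2 genes was not itself tested.

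For g4 against empty, Nrg3 had a log2 fold change of 0.27 ± 0.25 in HA-positive nuclei (SE, edgeR adjusted p = 0.895) and of 0.18 ± 0.21 in HA-negative nuclei (adjusted p = 0.999). In each, 4 of 7 animals were higher on the g4 side and the ranges overlapped. The difference of the vector effects was 0.09 ± 0.32 (SE, log2, adjusted p = 0.998).

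Nrg2 encodes a neuregulin that is made in the brain and binds ErbB3 and ErbB4. The gene (ENSMUSG00000060275) lies at chr18:36017652-36197380 on the minus strand, with 3139 bases of annotated exons. Its 58 counts were split as 3 (empty) and 14 (g4) in HA-positive libraries and 20 (empty) and 21 (g4) in HA-negative ones. It was at 0 in 5, 3, 2 and 1 of the 7 libraries of those groups. Its pooled share of counts was 1.01 counts per 1e6 in empty HA-positive libraries (95% exact Poisson interval 0.209 to 2.96, which covers counting error only) and 5.00 in empty HA-negative ones (3.05 to 7.72). Exact permutation p-values for its 4 contrasts lay between 0.107 and 0.997, so no difference was detectable at this depth.

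**Figure D3:**
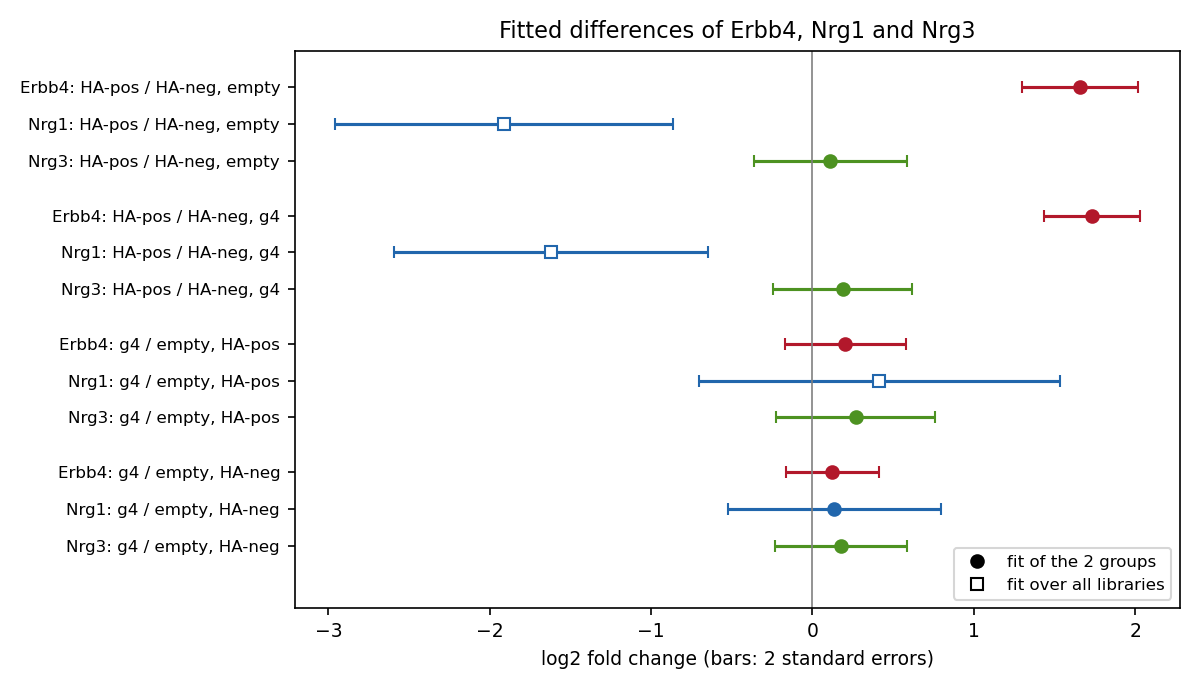
Fitted log2 fold change (horizontal axis) of Erbb4, Nrg1 and Nrg3 for HA-positive over HA-negative nuclei with each vector and for g4 over empty in each kind of nucleus, with bars of 2 standard errors. Filled circles come from the fit of the 2 groups and open squares from the fit over all libraries, used where Nrg1 had too few counts. Erbb4 lies near 1.7, Nrg1 below 0 and Nrg3 near 0 between the fractions, and all bars of g4 over empty cross 0.

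Over the 28 libraries Nrg3 had r = 0.45 with Erbb4, and r = 0.65 over deviations from the group means. The genes most like Nrg3 were Ubr2 (r = 0.65), a ubiquitin ligase, Pak3 (0.64), a kinase of neuronal spines, and the mitochondrial transcript mt-Co3 (0.64), with 0.61, 0.60 and 0.60 over deviations from the group means. For Nrg1 they were Igsf21 (r = 0.87), a synaptic adhesion protein, Qk (0.84), the RNA-binding protein Quaking of oligodendrocytes and other glia, and Apod (0.83), the lipid carrier apolipoprotein D. Over deviations from the group means these values fell to 0.60, 0.48 and 0.41. Nrg1 had r = -0.74 with Erbb4 over all libraries and -0.15 over deviations from the group means.

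Erbb4 made up most of the ErbB receptor RNA in all groups. Per kb of annotated exon its mean level was 39.0 CPM (empty) and 44.9 (g4) in HA-positive libraries and 12.3 (empty) and 13.5 (g4) in HA-negative ones. This was 92.8, 91.8, 80.9 and 74.3% of the summed level per kb of Egfr, Erbb2, Erbb3 and Erbb4, as means over the 7 libraries of each group. Among the neuregulins Nrg3 took 91.2, 86.4, 71.0 and 72.7% of the summed level per kb of Nrg1, Nrg2 and Nrg3, in the same order. Nrg4 had 0 counts in all 28 libraries. These shares compare annotated exons, while nuclear RNA holds introns as well, and long genes can gain counts from them.

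**Figure D4:**
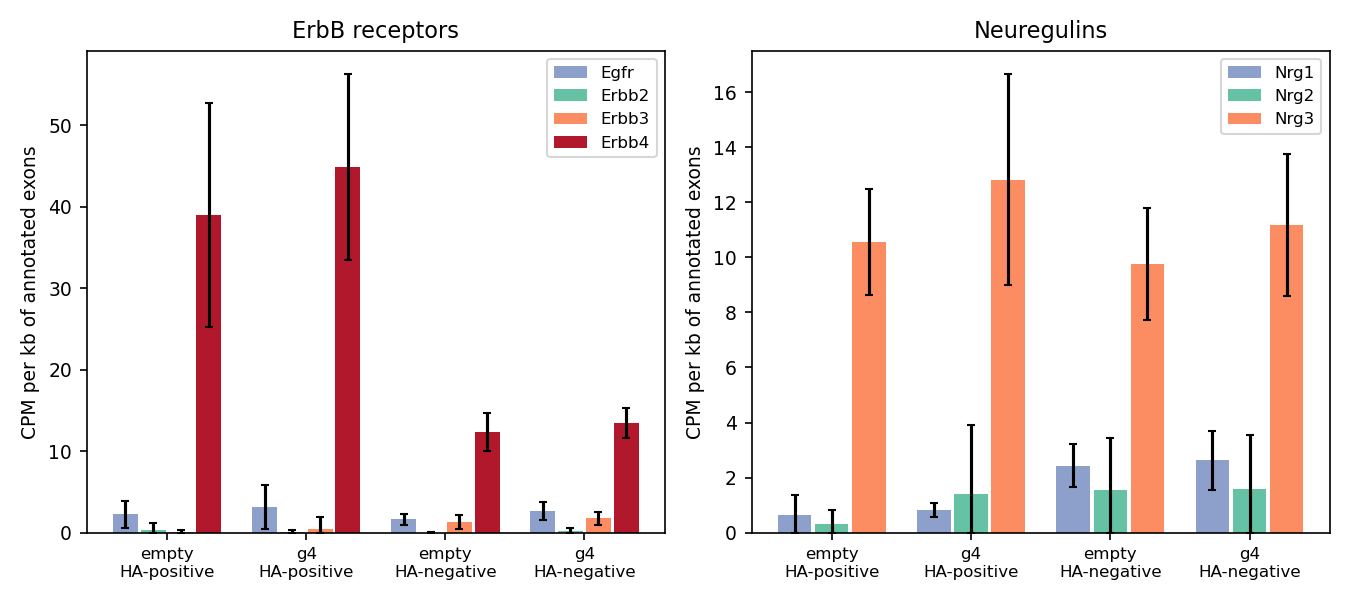
Mean level in CPM per kb of annotated exon (vertical axes, linear, from 0) of the ErbB receptor genes (left) and of Nrg1, Nrg2 and Nrg3 (right) in the 4 groups, with error bars of 1 SD (n = 7). Erbb4 is at 39.0 and 44.9 in HA-positive and at 12.3 and 13.5 in HA-negative libraries, above the other receptors in each group. Nrg3 lies between 9.76 and 12.8 in all groups, above Nrg1 and Nrg2.

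Of the other receptors, Egfr, which binds EGF and related ligands, was the only one with enough counts for a test. Its means were 25.4 ± 18.8 CPM in empty HA-positive and 18.4 ± 7.55 CPM in empty HA-negative libraries (SD, n = 7 each), and the log2 fold change was 0.40 ± 0.52 (SE, edgeR adjusted p = 0.751). With g4 it was 0.22 ± 0.42 (adjusted p = 0.860). Erbb2, the co-receptor without a known ligand of its own, had 4 and 3 counts in empty and g4 HA-positive libraries and 1 and 4 in HA-negative ones, too few to order the groups. Erbb3, which binds neuregulins and is known from oligodendrocyte and Schwann cell lineages, had 34 and 45 counts in empty and g4 HA-negative libraries. In the HA-positive groups it had 1 count with empty and 21 with g4, and all 21 were in the library of animal 19 with the glial transcripts.

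Other ligands of the EGF family were sparse. Of 8 genes, 4 (among them Nrg4) had no count in any library, and none could be tested between the fractions in the fits of 2 groups. Tgfa, which encodes the EGFR ligand TGF alpha, had the most counts. It ranged from 13.0 over 31.2 to 45.2 CPM in empty HA-negative libraries and from 0 to 5.70 CPM in empty HA-positive ones, 124 against 2 counts. These did not overlap, and the pooled HA-positive share was 0.0218 times that of HA-negative libraries (95% counting interval 0.00261 to 0.0805). Tgfa passed the filter of the fit over all libraries through the HA-negative libraries, where it was higher, so its calls are not independent of that filter. In that fit, used for this gene after its values were seen, it had a log2 fold change of -5.01 ± 0.88 (SE, edgeR adjusted p = 4.88e-05). With g4 it was -3.44 ± 0.72 (adjusted p = 0.00136), from 103 counts in HA-negative and 9 in HA-positive libraries, whose ranges overlapped. Of these 9 counts, 7 were in the library of animal 19, and without it Tgfa had a log2 fold change of -4.76 ± 0.88 (SE, adjusted p = 9.78e-05).

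The next genes encode proteases that cut neuregulins and ErbB4. Of 11 sheddase and gamma-secretase genes, 4 were tested with each vector and 0 were called, a number too small to set apart from the 7.01% and 6.4% called over all genes, with medians of -0.12 (empty) and -0.08 (g4) on the log2 scale against 0.01 over all genes in both. Adam10, a sheddase with the highest mean level of the list, had log2 fold changes of -0.40 ± 0.26 (SE, edgeR adjusted p = 0.446) and -0.15 ± 0.24 (adjusted p = 0.821). Of 10 scaffolds and turnover regulators, among them the postsynaptic scaffold genes Dlg4 and Dlg2 and the ubiquitin ligase gene Nedd4, 8 were tested and 0 called with either vector (medians -0.08 and -0.01), and the same holds for this number. Nedd4, the highest of that list, had means of 417 ± 54.4 CPM in empty HA-positive and 420 ± 37.1 CPM in empty HA-negative libraries (SD, n = 7 each) and a log2 fold change of -0.01 ± 0.12 (adjusted p = 0.985).

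Downstream of the receptor, 14 of 18 signalling genes were tested between the fractions. With empty 1 was called higher and 0 lower, with a median log2 fold change of -0.04, and with g4 2 were called higher and 0 lower, with a median of -0.26. Over all genes tested 7.01% and 6.4% were called in either direction, and 3.5% and 3.32% as higher. The counts of 1 and 2 of 14 are too small to set apart from these shares. Akt1, a kinase of the PI3 kinase pathway, ranged from 24.5 over 58.8 to 148 CPM in empty HA-positive and from 24.1 over 27.5 to 45.0 CPM in empty HA-negative libraries. The ranges overlapped at the low end, and the log2 fold change was 1.22 ± 0.33 (SE, edgeR adjusted p = 0.0207). With g4 it was 0.96 ± 0.30 (adjusted p = 0.0446), a call that was lost in the fit over all libraries (adjusted p = 0.0680). Sos1, an exchange factor that activates Ras, ranged from 88.4 over 166 to 187 CPM in g4 HA-positive and from 55.2 over 80.8 to 121 CPM in g4 HA-negative libraries. Its log2 fold change with g4 was 0.94 ± 0.19 (adjusted p = 0.00132), and with empty it was 0.58 ± 0.22 (adjusted p = 0.115). Whether the effect on Sos1 differed between the vectors gave 0.38 ± 0.29 (SE, log2, adjusted p = 0.996).

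For g4 against empty, 3 protease, 8 scaffold and 14 signalling genes were tested in HA-positive nuclei, with no other receptor or EGF-family ligand among them. In HA-negative nuclei 5 protease, 8 scaffold, 15 signalling, 1 receptor and 1 EGF-family ligand gene were tested. Of these, 0 were called in either kind of nucleus, where the shares called over all genes were 0.0599% and 0%.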

How the data were processed

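Raw counts per gene were deposited by the authors in 2 tables, under a label that calls them raw, per the labels, and all values are whole. The submitters' processing notes name GRCm38. Neither the alignment and counting tools nor the handling of strand and molecular barcodes is stated there. Missing values (NA) were taken as 0 counts, and of 41550 rows the 1 without a gene symbol (0 counts) was dropped. For 3 animals the number in the sample title is 1 lower than in the column name, and the sample descriptions tied each sample to its column.

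Levels are CPM with TMM factors over all 28 libraries. Log2 fold changes come from edgeR 4.0.16 (R 4.3.3), with its two-sided quasi-likelihood test, a robust fit, TMM scaling and the filterByExpr filter by group, fitted on the whole table for the libraries of the 2 groups compared, with Benjamini-Hochberg adjustment over all genes tested and calls at an adjusted p under 0.05. The difference of the vector effects used all 28 libraries. Single values were tested by exact two-sided permutation. Alternatives were DESeq2 1.42.0, limma 3.58.1 (voom), RLE factors, no filter, the animal as a block, 1 fit over all libraries and leaving out animals or libraries. The fits were tested on simulated data. Exon lengths, positions and 3′ UTRs are from GENCODE M21.

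The same animal gave both members of each pair by the labels. The deviations of its libraries from the group means had correlations between -0.0924 and 0.131. The results given are from the fits without the block.

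The members and gene lists were chosen with earlier results of these data known. All 4 members are named in every comparison. From each pathway list the called genes are named (at most the 2 largest rises and 2 largest falls), and otherwise the gene with the highest mean CPM. Of the 5 genes most like Erbb4, 3 are named and the others are not reported here. The Tgfa fit over all libraries, the alternatives of the Nrg1 fit over all libraries and the exact tests of Nrg1 and Nrg2 were added after the data had been seen. Precision is limited by 248612 to 902944 counts per library, of which 17.0 to 40.4% were ribosomal RNA. CPM are scaled to all counts, these included. The RNA input is labelled as 40 to 2000 pg.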

Additional observations from a re-analysis of the deposited data

Results flagged for a closer look

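In 4 of 20 groups of 7 libraries examined (the 4 genes and the ratio of Erbb4 to GABA neuron markers, in the 4 groups), 1 library lay further from the rest than Dixon's 95% limit of 0.568 of the group's range. For normally distributed values chance flags about 1 in 20 such groups. The Nrg1 and Nrg2 groups rest on few counts, with many Nrg2 values at 0, so that rate need not hold for them. Nrg1 in the empty HA-positive library of animal 23 was 22.2 CPM, from 6 counts, while the other 6 libraries held 0 to 9.45 CPM. Nrg2 in the g4 HA-positive library of animal 18 was 21.9 CPM, from 8 counts, against 0 to 4.12 CPM in the others. Nrg2 in the g4 HA-negative library of animal 19 was 18.7 CPM, from 11 counts, against 0 to 4.80 CPM in the others. The ratio of Erbb4 to the summed GABA neuron markers in the g4 HA-negative library of animal 18 was 0.588, against 0.299 to 0.380 in the others. The GABA neuron markers and the striatal markers of that library had the lowest sums of the group, 276 and 282 CPM.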

How the results depend on the processing

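The higher Erbb4 level of HA-positive nuclei passed the threshold in every alternative that was run (log2 fold change 1.51 to 1.75 with empty and 1.63 to 1.83 with g4), and Nrg3 passed in none. With the animal as a replicate block Erbb4 had log2 fold changes of 1.61 (edgeR adjusted p = 3.00e-07) and 1.70 (adjusted p = 8.00e-09), and the block changed no call of the 4 genes in the fits of 2 groups. The difference of the vector effects, near 0 over all animals, changed sign for Nrg3 (-0.054 to 0.15 when 1 animal was left out, -0.11 without HA-positive libraries under 10000 genes), Erbb4 (-0.059 to 0.16 when 1 animal was left out) and Nrg1 (-0.086 to 0.87, and -0.18 without those libraries), with no call. The log2 difference between the fractions in the ratio of Erbb4 to GABA markers was -0.22 against Gad1 alone with empty. With g4 it was 0.041 against Gad1 alone, 0.48 without animal 19 and 0.38 to 0.58 when 1 animal was left out (exact p 0.03125 to 0.0625, where 6 pairs cannot go below 0.03125). Nrg1 between the fractions had log2 fold changes of -2.47 to -1.67 (adjusted p 0.00418 to 0.0583) with empty and -1.79 to -1.46 (0.0403 to 0.151) with g4 when 1 animal was left out of the fit over all libraries. With no filter on low counts the fits of 2 groups gave -1.93 (adjusted p = 0.0682) and -1.63 (adjusted p = 0.0293).

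The number of genes called for g4 against empty in HA-positive nuclei was 3. It was 11 by DESeq2, 28 with no filter, 1 with the replicate block, 5 without the HA-positive library of animal 19 on the g4 side, 0 without HA-positive libraries under 10000 genes (426 at an unadjusted p under 0.05), 8 in the fit over all libraries and 1 to 4 when 1 animal was left out. In HA-negative nuclei edgeR called 0 (236 at an unadjusted p under 0.05) and DESeq2 1. Between the fractions with empty the count of 388 became 661 with no filter, 612 in the fit over all libraries and 251 to 371 when 1 animal was left out, with the lowest value without animal 19. With g4 the count of 401 became 218 to 422 when 1 animal was left out, with 218, 224 and 241 without animals 20, 21 and 22. For the difference of the vector effects edgeR called 0 (359 at an unadjusted p under 0.05), and 3 with no filter. The cause of these changes was not tested beyond the numbers of genes and samples in each fit. Depth limits Nrg1 to at most 30 counts in a library and Nrg2 to at most 11.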
